A study of Homo sapiens with 24 samples.

Results

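WWTR1 (the gene of the protein TAZ), its paralog YAP1, the DNA-binding factors TEAD1, TEAD2, TEAD3 and TEAD4 and the target genes CCN1, CCN2, ANKRD1 and AMOTL2 were followed through 24 RNA-seq libraries of A549 cells, an established human lung adenocarcinoma line. These 10 genes were taken by symbol from the 58721 genes counted. The set was chosen by the level of WWTR1 against siControl, which was low with 1 of the siRNAs, so the values of WWTR1 in both single knockdowns are given as a description and the other 9 genes were tested. In the single knockdowns, cells received siRNAs against MYBL2 (siMYBL2, 4 libraries), siRNAs against FOXM1 (siFOXM1, 4 libraries) or scrambled siRNA (siControl, 4 libraries), and the same siControl libraries served both comparisons. In the double knockdown, cells were co-transfected against both factors (siBoth, 3 libraries) beside their own scrambled control (siControl_Both, 3 libraries). The labels give 25 nM of siRNA and do not say whether the co-transfection held that amount of each siRNA or in all. In a separate experiment cells received 20 µM of FDI-6, a compound reported to block DNA binding by FOXM1, for 24 h (FDI6, 3 libraries), beside control_FDI6 (3 libraries), for which the study names DMSO. Each factor was targeted with 1 siRNA product. The study's methods give at least 3 biological replicates per experiment. Nothing in the labels says whether these were separate cultures, so the p-values measure the spread between these libraries.

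YAP1 and TAZ are transcriptional coactivators that do not bind DNA themselves. They enter the nucleus and bind TEAD factors, which carry them to promoters and enhancers. The Hippo kinases (STK3 and STK4, then LATS1 and LATS2) phosphorylate both coactivators and hold them in the cytoplasm, so much of their control is at the protein level and is not seen in RNA counts. CCN1 and CCN2 encode secreted matricellular proteins, ANKRD1 a nuclear ankyrin repeat protein and AMOTL2 a motin that binds YAP1 and TAZ in turn. These 4 genes are widely used as readouts of YAP1 and TAZ activity.

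The promoters of the target genes hold the TEAD word in different numbers. The word searched was GGAATG on the forward strand and CATTCC on the reverse strand, in the 250 bases before the RefSeq start (GRCh38.p14). It stood in 11.9% of 35116 RefSeq promoters of that length. Of the 10 genes, 7 had an entry among the RefSeq promoters used here. TEAD1, TEAD4 and CCN1 had none among them, so their promoters were not searched. CCN2 held 3 copies, starting 169, 104 and 95 bases before the start, and ANKRD1 held 2, starting 220 and 128 bases before it. YAP1 held 1 copy, 162 bases before its start. WWTR1, TEAD2, TEAD3 and AMOTL2 held none in this window. The promoters of CCN2 (chr6:131951373-131951622, minus strand) and ANKRD1 (chr10:90921088-90921337, minus strand) are shown, with the TEAD word in capitals. CCN2 was called with FDI6. ANKRD1 was called only in alternative fits, such as that of siBoth with the replicate number as a block.
CCN2: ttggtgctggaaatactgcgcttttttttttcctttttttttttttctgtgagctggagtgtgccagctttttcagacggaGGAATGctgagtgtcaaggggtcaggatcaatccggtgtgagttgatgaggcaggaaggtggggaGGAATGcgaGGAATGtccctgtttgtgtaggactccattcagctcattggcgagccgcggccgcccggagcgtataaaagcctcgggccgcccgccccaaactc
ANKRD1: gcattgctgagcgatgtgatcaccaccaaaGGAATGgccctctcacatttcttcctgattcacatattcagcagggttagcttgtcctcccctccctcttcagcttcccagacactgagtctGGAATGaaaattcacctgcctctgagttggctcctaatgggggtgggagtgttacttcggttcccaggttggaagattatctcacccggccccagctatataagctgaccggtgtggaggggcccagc
The CHR word TTTGAA, an element of cell-cycle promoters at which MYBL2 and FOXM1 complexes act, stood on either strand in 13.3% of all RefSeq promoters and in none of the 7 entries. CCAAT or its reverse ATTGG stood in 32.0% of all promoters and in 2 entries, those of TEAD2 and CCN2. The forkhead word GTAAACA or its reverse stood in 2.98% of all promoters and in 1 entry, that of WWTR1 (chr3:149703274-149703523, minus strand), 53 bases before the start. That RefSeq start lies inside the WWTR1 gene as GENCODE V44 draws it (chr3:149517235-149736714). A match describes letters and was not tested as a binding site.

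Between 16487394 and 30140550 read pairs per library were counted on genes. The FDI6 libraries were the shallowest, with 16487394 to 17741253. The share of pairs that did not align was 7.68% to 10.9% in siBoth and siControl_Both and 1.73% to 3.03% in the other groups, so the double knockdown is read against its own control. MYBL2 was at 4.15% of its control mean in siMYBL2 and at 4.91% in siBoth. FOXM1 was at 9.63% in siFOXM1, at 9.67% in siBoth and also at 60.2% in siMYBL2, whereas MYBL2 was at 96.5% in siFOXM1. With FDI6, MYBL2 was at 70.1% and FOXM1 at 77.6% of control. Averaged over the libraries, 5 of 5 epithelial markers, 2 of 6 lung markers (NAPSA and ABCA3), 2 of 5 fibroblast markers (COL1A1 and LUM), 1 of 3 endothelial markers (PECAM1) and 0 of 3 leukocyte markers reached 1 CPM. The lung markers NKX2-1, SFTPA1, SFTPB and SFTPC stood below it. The summed level per library ran from 2731 to 8248 CPM for the epithelial, 55.4 to 130 CPM for the lung, 6.18 to 59.7 CPM for the fibroblast and 0 to 4.58 CPM for the endothelial list. Fewer cells of a kind and less RNA per cell cannot be told apart in these bulk libraries. Values are CPM, the counts divided by the TMM-scaled library size, unless stated. A gene counts as called here where edgeR's quasi-likelihood test, adjusted by Benjamini-Hochberg over all genes tested, passed 0.05 and the levels differed by more than 1.5-fold.

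WWTR1 was lower than its own control with each siRNA alone and with both together, and it was not lower with FDI6. In siControl it stood at 208, 189, 205 and 245 CPM in replicates 1 to 4. In siMYBL2 it stood at 108, 105, 93.9 and 139 CPM, with a mean of 111 ± 19.1 (SD, n = 4), which is 52.6% of the siControl mean of 212 ± 23.8 (SD, n = 4). In siFOXM1 it stood at 66.3, 63.6, 51.8 and 74.6 CPM, with a mean of 64.1 ± 9.41 (SD, n = 4), which is 30.3% of that mean. The 3 groups did not overlap, and the siFOXM1 libraries lay lowest. The log2 fold change was -0.93 in siMYBL2 and -1.73 in siFOXM1, given without a test because WWTR1 chose the genes. FOXM1 was itself lower in siMYBL2, and its part in that value was not tested. In siFOXM1 it ranked 4 of 15892 genes from the lowest log2 fold change, and in siMYBL2 it ranked 253 of 16065.

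The double knockdown and FDI6 are other libraries than those that chose the gene, although the double knockdown was aimed at the same factors, FOXM1 included, and is not independent of that choice. In siControl_Both WWTR1 stood at 172, 163 and 162 CPM, and in siBoth at 39.2, 40.8 and 45.6 CPM. The groups lay far apart, with siBoth at 25.3% of control. WWTR1 fell by 1.98 on the log2 scale in siBoth (SE 0.0862, adjusted p = 2.83e-05) and ranked 17 of 15812 genes from the lowest. Its log2 fold change in siBoth was 0.26 below that in siFOXM1 (a difference of -0.26, given without a test), and the 2 controls themselves stood at 212 and 166 CPM. In control_FDI6 WWTR1 stood at 145, 138 and 149 CPM, and in FDI6 at 195, 161 and 166 CPM. The FDI6 libraries lay above their controls without overlap, but the log2 fold change of 0.27 (SE 0.0782, adjusted p = 0.0178) stayed under the 1.5-fold limit. Once GC content and transcript length were corrected for, an alternative added after the data were seen, it was 0.02 (adjusted p = 0.784). Ordered by mean over the 7 groups, WWTR1 was highest in siControl (212), then FDI6 (174), siControl_Both (166), control_FDI6 (144), siMYBL2 (111), siFOXM1 (64.1) and siBoth (41.9 CPM). In that order the ranges of siControl and FDI6, of FDI6 and siControl_Both and of control_FDI6 and siMYBL2 overlapped, and the other neighbours did not. Of the exon bases of WWTR1, 9.05% lie opposite the antisense gene WWTR1-AS1, which had 9 to 51 counts per library against 964 to 5895 for WWTR1.

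**Figure D1:**
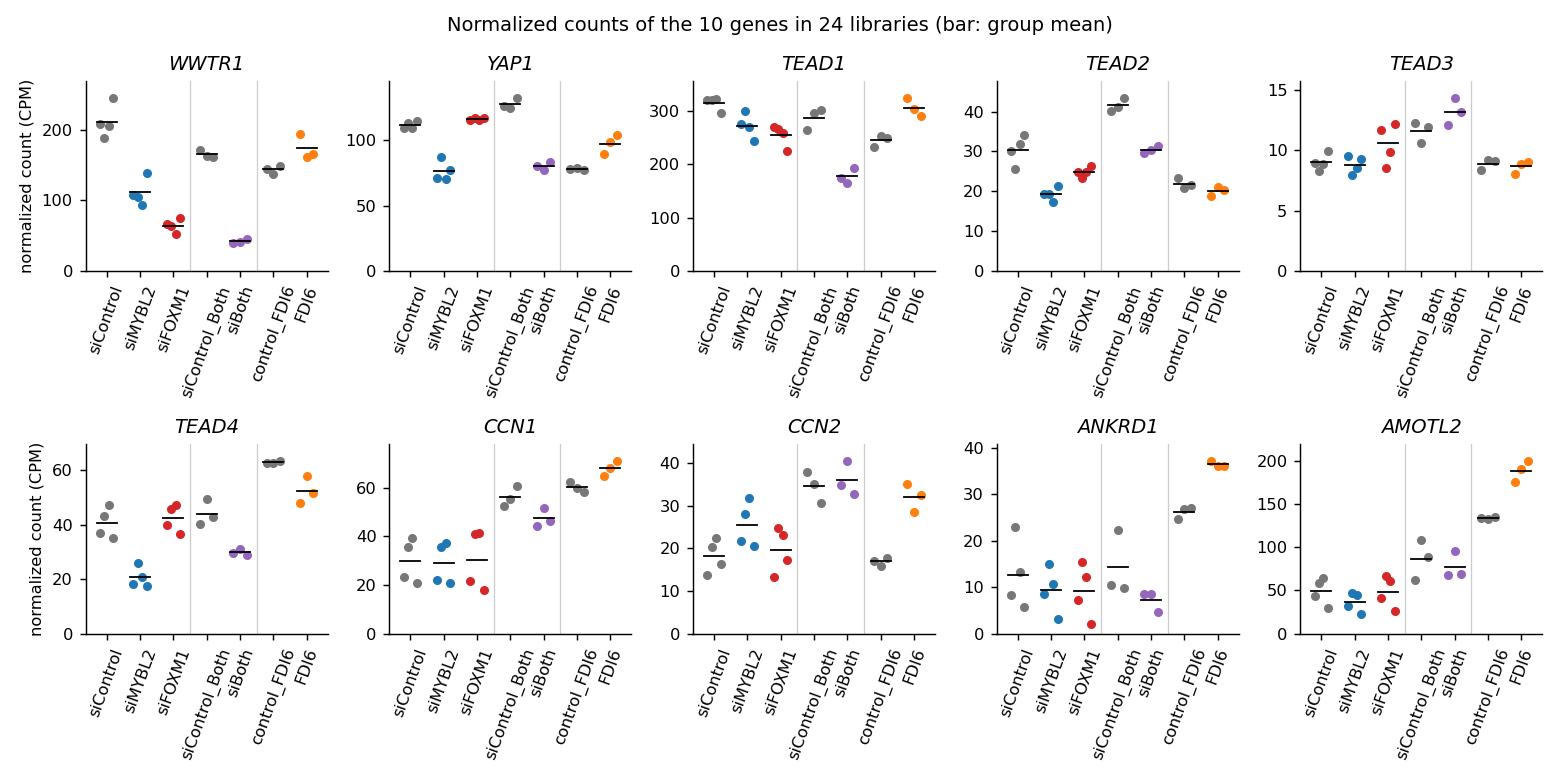
Normalized counts (CPM, vertical axis from 0) of the 10 genes in each of the 24 libraries, with 1 point per library, a bar at each group mean and vertical lines between the 3 experiments. WWTR1 was lower in siMYBL2, siFOXM1 and siBoth than in the controls of each, YAP1 and TEAD4 were lower in siMYBL2 and siBoth but not in siFOXM1, and the points of CCN1, ANKRD1 and AMOTL2 spread widely within the single-knockdown groups.

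Of the other 9 genes, 2 were called in siMYBL2, both lower, where 7.90% of 16065 genes were called and 3.52% were called lower. In siFOXM1 none of the 9 was called by edgeR (2 had an unadjusted p under 0.05, and DESeq2 called none), where 0.667% of 15892 genes were. Of those 15892 genes, 2060 had an unadjusted p under 0.05. In siBoth 3 of 10 were called, all lower, where 6.44% of 15812 genes were called and 3.64% were called lower. They were YAP1, TEAD1 and WWTR1, whose fall there is not independent of the choice of genes. With the GC and length correction YAP1 (-0.54) and TEAD1 (-0.51) fell short of the size limit and TEAD4 (-0.73) passed it. With FDI6 1 of 10 was called, and it was higher, where 13.8% of 15240 genes were called and 8.00% were called higher. The median log2 value of the 9 genes was -0.41 in siMYBL2 and 0.02 in siFOXM1. Over the 10 genes, WWTR1 included, it was -0.51 in siBoth and 0.29 with FDI6. Over all genes it was 0.01, 0.00, 0.02 and -0.01 in that order. Libraries with the same replicate number deviated together in the knockdown experiments, and with that number as a block the counts were 2, 0, 4 and 1. In those blocked fits 12.4%, 2.52%, 11.7% and 13.2% of all genes were called. On the adjusted p alone many more passed with the block. They were 7507 of 16065 genes in siMYBL2, 4187 of 15892 in siFOXM1, 5501 of 15812 in siBoth and 5153 of 15240 with FDI6.

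**Figure D2:**
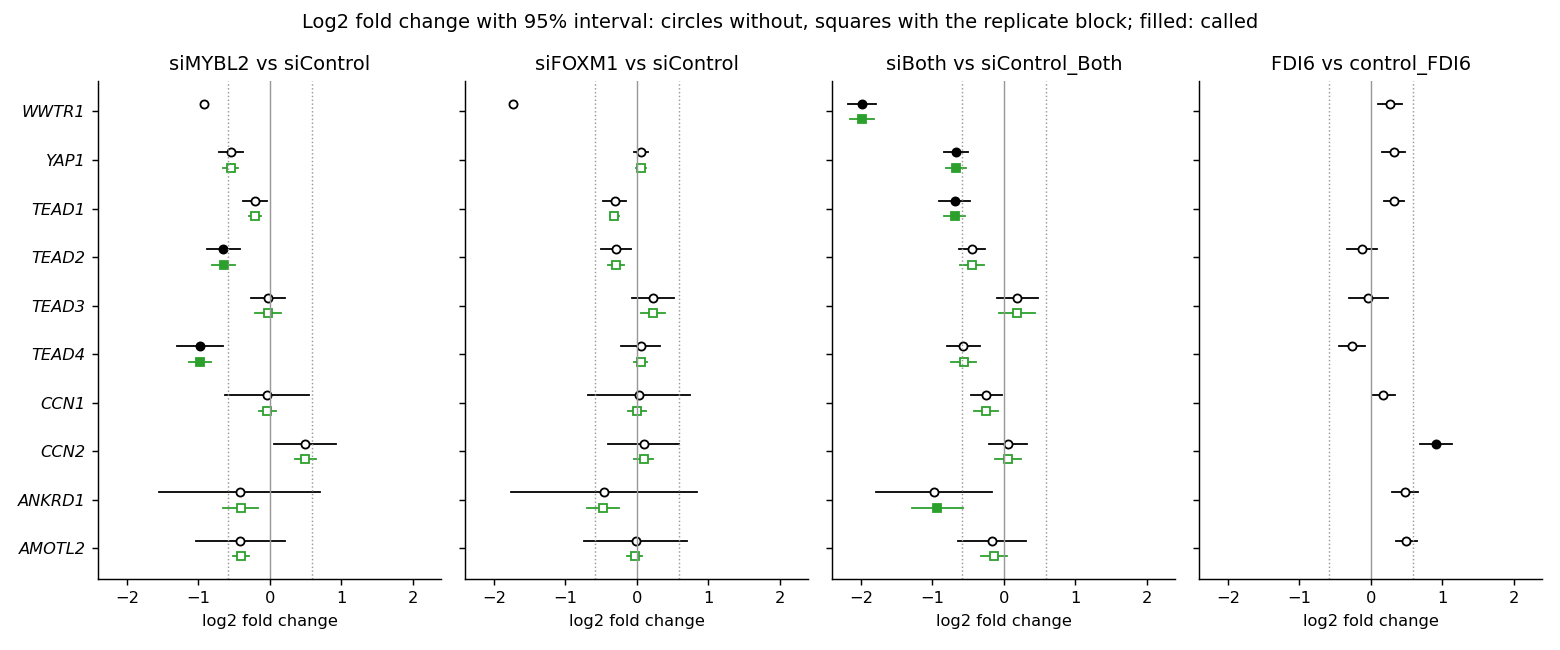
Log2 fold change against the own control (horizontal axis) of the 10 genes in 4 comparisons, with 95% intervals, as circles without and green squares with the replicate number as a block (not drawn for FDI6, where the numbers did not pair the libraries). Filled symbols were called, dotted lines mark a 1.5-fold change, and WWTR1 in the single knockdowns is drawn without an interval or a call; the intervals of the 4 targets shrank with the block while their centres hardly moved.

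YAP1 (chr11:102110447-102233424, plus strand), the paralog, was lower in siMYBL2 and not in siFOXM1. It stood at 109, 113, 109 and 115 CPM in siControl, at 71.0, 87.0, 70.2 and 77.3 CPM in siMYBL2 and at 115, 117, 116 and 117 CPM in siFOXM1. The siMYBL2 libraries lay below siControl without overlap, and the siFOXM1 libraries lay just above it. In siMYBL2 the log2 fold change of YAP1 was -0.54 (SE 0.0743, adjusted p = 0.00183), short of the 1.5-fold limit, and past it, at -0.62, without siMYBL2 replicate 2. In siFOXM1 the log2 fold change was 0.05 (SE 0.0441, adjusted p = 0.699), with a 95% interval from -0.04 to 0.15. Compared directly, YAP1 was 0.60 higher on the log2 scale in siFOXM1 than in siMYBL2 (SE 0.0726, adjusted p = 0.00058). YAP1 and TEAD4 were the 2 of 9 genes called in that comparison, both higher, where 10.2% of 16172 genes were called and 4.34% were called higher, and with the block, in which 14.3% of genes were called, their number was also 2. The YAP1 call rested on its size, being 0.57 without siMYBL2 replicate 1 and also 0.57 without replicate 3, both under the limit.

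In the double knockdown YAP1 fell. It stood at 126, 125 and 132 CPM in siControl_Both and at 80.5, 77.3 and 83.3 CPM in siBoth, which is 62.9% of control. The fall of 0.67 on the log2 scale was called (SE 0.0743, adjusted p = 0.00161), though with the GC and length correction it was 0.54, under the size limit (adjusted p = 0.0024). The effect in siBoth was 0.73 lower than that in siFOXM1 by the interaction test (log2 -0.73, SE 0.0734, adjusted p = 6.33e-05). YAP1 was the 1 gene of 9 called there, where 2.95% of 16938 genes were called and 1.98% were called lower, and with the replicate block TEAD4 was called as well (-0.62, adjusted p = 2.62e-05), against 8.78% of genes. Against the effect of siMYBL2, the siBoth effect on YAP1 differed by -0.12 (95% interval -0.35 to 0.10, adjusted p = 0.855). No gene of the 9 was called in that interaction by edgeR (1 had an unadjusted p under 0.05, and DESeq2 called none), where 0.159% of 17012 genes were, and with the block none of the 9 was called against 1.59% of genes.

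Per transcript length, the balance between the coactivators differed between the groups. In TPM, which divides counts by the summed exon length of each gene, WWTR1 stood at 1.43 ± 0.142 (SD, n = 4) times YAP1 in siControl, at 1.11 ± 0.192 (SD, n = 4) in siMYBL2 and at 0.416 ± 0.0597 (SD, n = 4) in siFOXM1. The siFOXM1 ratios, 0.338 to 0.481, did not overlap those of siControl, 1.26 to 1.61, so WWTR1 passed from the more to the less abundant of the pair. The ratio in siBoth was 0.394 ± 0.0233 (SD, n = 3) against 0.981 ± 0.052 (SD, n = 3) in siControl_Both. The ratio in FDI6 was 1.36 ± 0.244 (SD, n = 3) against 1.40 ± 0.0728 (SD, n = 3) in control_FDI6, a difference within the spread. The sum of both genes was 164 TPM in siControl, 99.4 TPM in siMYBL2 and 102 TPM in siFOXM1, so that the single knockdowns reached similar sums with different shares. It was 142 TPM in siControl_Both and 66.8 TPM in siBoth. The siMYBL2 and siFOXM1 values hold the WWTR1 level by which the genes were chosen and were not tested.

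**Figure D3:**
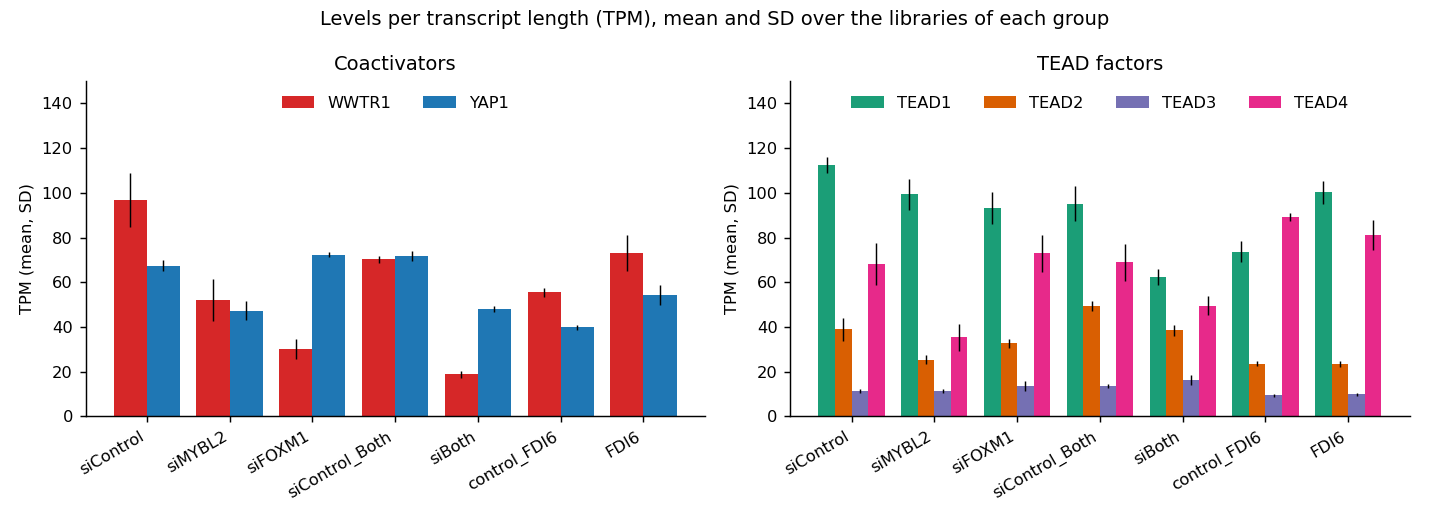
Levels per transcript length (TPM, vertical axis from 0) of the coactivators and of the TEAD factors in the 7 groups, as means with SD over the 3 or 4 libraries of each. WWTR1 exceeded YAP1 in siControl (ratio 1.43) and fell below it in siFOXM1 (0.416). The ratio was 0.394 in siBoth and 0.981 in its own control siControl_Both, and TEAD1 and TEAD4 were the most abundant TEAD factors in every group.

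The TEAD factors, which carry the coactivators to DNA, differed from each other. TEAD1 (chr11:12674421-12944737), TEAD2 (chr19:49340595-49362457), TEAD3 (chr6:35473597-35497079) and TEAD4 (chr12:2959330-3040676) lie at separate places in hg38. TEAD1 was the most abundant per length in siControl, with 48.7% of the summed TEAD TPM, followed by TEAD4 with 29.5%, TEAD2 with 16.9% and TEAD3 with 4.90%. In control_FDI6 the order of the leading pair was turned, with TEAD4 at 45.5% and TEAD1 at 37.6%. TEAD4 stood at 37.0, 43.2, 47.4 and 35.2 CPM in siControl, at 18.2, 26.0, 20.8 and 17.7 CPM in siMYBL2 and at 40.1, 45.9, 47.3 and 36.5 CPM in siFOXM1. The siMYBL2 libraries lay below the others without overlap, and siFOXM1 overlapped siControl. TEAD4 fell by 0.98 on the log2 scale in siMYBL2 (SE 0.144, adjusted p = 0.00254), and its log2 fold change in siFOXM1 was 0.05 (95% interval -0.22 to 0.32, adjusted p = 0.924). Compared directly, it was 1.03 higher in siFOXM1 than in siMYBL2 (log2, SE 0.138, adjusted p = 0.00102).

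In the double knockdown TEAD4 stood at 40.2, 49.4 and 42.9 CPM in siControl_Both and at 29.6, 31.0 and 28.9 CPM in siBoth. Its log2 fold change of -0.56 (SE 0.0995, adjusted p = 0.0111) lay just inside the size limit of 0.585. It passed that limit without siBoth replicate 2 (-0.59), without siControl_Both replicate 1 (-0.63), without siControl_Both replicate 3 (-0.59) and with the GC and length correction (-0.73). The siBoth effect on TEAD4 differed from that of siMYBL2 by 0.41 (log2, 95% interval -0.01 to 0.83, adjusted p = 0.647).

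TEAD1 showed another order. It stood at 321, 321, 323 and 296 CPM in siControl, at 275, 300, 270 and 244 CPM in siMYBL2 and at 270, 266, 259 and 225 CPM in siFOXM1. The siFOXM1 libraries lay below siControl, and siMYBL2 overlapped it. The log2 fold change was -0.31 in siFOXM1 (SE 0.0716, adjusted p = 0.0801) and -0.21 in siMYBL2 (SE 0.0741, adjusted p = 0.0825). With the replicate block the adjusted p was 1.34e-08 in siFOXM1 and 0.000656 in siMYBL2, with the fold changes still under the size limit. In siBoth, TEAD1 stood at 175, 165 and 194 CPM against 264, 295 and 301 CPM in siControl_Both, a fall of 0.69 on the log2 scale (SE 0.0954, adjusted p = 0.00425). With the GC and length correction that fall was 0.51, under the size limit (adjusted p = 0.0153).

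TEAD2 was lower in siMYBL2, at 19.4, 19.4, 17.4 and 21.2 CPM against 30.1, 25.5, 31.8 and 34.3 CPM in siControl, without overlap. It fell by 0.65 on the log2 scale (SE 0.103, adjusted p = 0.00339), the other gene called in that comparison beside TEAD4. Its log2 fold change was -0.30 in siFOXM1 (adjusted p = 0.187, or 0.00013 with the block) and -0.45 in siBoth (adjusted p = 0.0118). Of its exon bases, 10.7% lie opposite CD37, which had 98 to 304 counts per library against 310 to 1083 for TEAD2, and the strand setting of the counting is not stated. CD37 itself averaged 8.56 CPM in siControl and 6.22 CPM in siMYBL2, and its part in the TEAD2 difference was not tested. TEAD3, the least abundant, ranged from 7.96 to 14.3 CPM over the 24 libraries, and its log2 fold changes lay between -0.04 and 0.23, none past the adjusted p limit, although with the block its 0.22 in siFOXM1 reached an adjusted p of 0.0479.

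The target genes CCN1 (chr1:85580761-85584589), CCN2 (chr6:131948176-131951372) and AMOTL2 (chr3:134355347-134375479) showed no detectable change in siFOXM1, where WWTR1 was at 30.3% of control. CCN1 stood at 23.4, 35.5, 39.4 and 20.8 CPM in siControl and at 21.6, 41.0, 41.5 and 17.8 CPM in siFOXM1, so the range of siFOXM1 covered that of siControl. AMOTL2 stood at 43.0, 59.1, 64.4 and 29.7 CPM in siControl and at 40.7, 66.4, 61.5 and 26.3 CPM in siFOXM1, again with overlapping ranges. CCN2 stood at 13.7, 20.4, 22.3 and 16.3 CPM in siControl and at 13.2, 24.8, 23.2 and 17.2 CPM in siFOXM1. The log2 fold changes were 0.02 for CCN1, -0.02 for AMOTL2 and 0.10 for CCN2, with adjusted p of 0.989, 0.991 and 0.924. Of the 4 targets none was called by edgeR, none had an unadjusted p under 0.05 and none was called by DESeq2.

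Much of the spread in these genes followed the replicate number. CCN1 in replicates 2 and 3 was 35.5 and 39.4 CPM in siControl, 35.7 and 37.3 CPM in siMYBL2 and 41.0 and 41.5 CPM in siFOXM1, whereas in replicates 1 and 4 it lay between 17.8 and 23.4 CPM in these groups. ANKRD1 was lowest in replicate 4 and highest in replicate 2 of each of the 3 groups, and its highest library held 4.04 times its lowest in siControl and 7.14 times in siFOXM1. The labels do not say what a replicate number stands for. With the number as a block, the 95% interval of the siFOXM1 log2 fold change narrowed from -0.69 to 0.74 to -0.12 to 0.12 for CCN1, from -0.74 to 0.70 to -0.13 to 0.07 for AMOTL2 and from -0.40 to 0.60 to -0.04 to 0.22 for CCN2. A change of these 3 genes by more than 1.5-fold lay outside the blocked intervals in that knockdown.

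**Figure D4:**
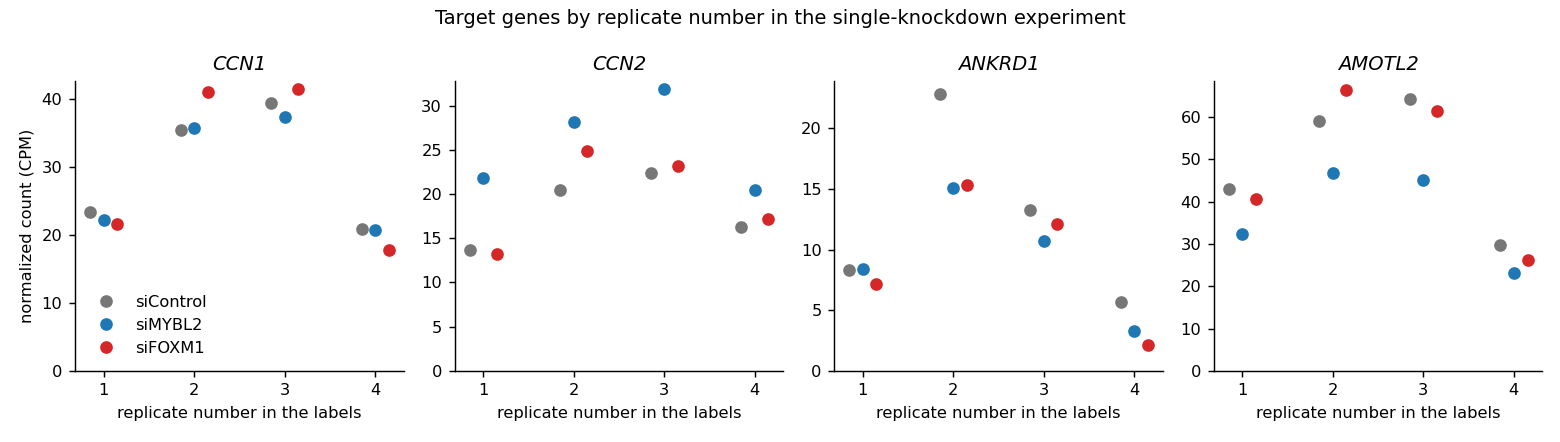
Normalized counts (CPM, vertical axis from 0) of the 4 target genes by the replicate number in the labels (horizontal axis) in siControl, siMYBL2 and siFOXM1, with 1 point per library. For CCN1 the points of the 3 groups at a number lie near each other. In siControl the CCN1 points lie at 20.8 to 23.4 CPM in replicates 1 and 4 and at 35.5 to 39.4 CPM in replicates 2 and 3. For ANKRD1 they lie apart in replicate 2, at 22.9 CPM in siControl, 15.1 in siMYBL2 and 15.3 in siFOXM1. The siMYBL2 points lie above for CCN2 and below for AMOTL2.

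ANKRD1 (chr10:90912096-90921087) was the target with the lowest knockdown values. It stood at 8.33, 22.9, 13.2 and 5.66 CPM in siControl, at 8.43, 15.1, 10.7 and 3.25 CPM in siMYBL2 and at 7.17, 15.3, 12.1 and 2.14 CPM in siFOXM1, with overlapping ranges. Its siFOXM1 log2 fold change of -0.46 (SE 0.576, adjusted p = 0.84) became -0.47 with the block (SE 0.111, adjusted p = 0.00203), lower in 4 of 4 same-numbered pairs and under the size limit. In siMYBL2 it was -0.42 (adjusted p = 0.608), or -0.41 with the block (adjusted p = 0.00887). Without siControl replicate 2, the library with 22.9 CPM, the unblocked value was 0.03 in siMYBL2 and 0.01 in siFOXM1. Under the block 4187 of 15892 genes passed the adjusted p limit in siFOXM1 and 7507 of 16065 in siMYBL2. The share of all genes lower in 4 of 4 pairs was not counted. ANKRD1 had few counts, 65 to 647 per library. In siBoth it stood at 8.61, 8.50 and 4.60 CPM against 10.5, 22.2 and 9.91 CPM in siControl_Both, without overlap. The log2 fold change there was -0.98 (SE 0.356, adjusted p = 0.11), and with the block -0.93 (SE 0.17, adjusted p = 0.000464), which was called. Without siControl_Both replicate 2 the unblocked value was -0.50 (adjusted p = 0.313).

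In siMYBL2, CCN2 and AMOTL2 differed from siControl in opposite directions once the replicates were matched. CCN2 was higher in 4 of 4 same-numbered pairs, at 21.8, 28.1, 31.8 and 20.4 CPM against 13.7, 20.4, 22.3 and 16.3 CPM in siControl. Its log2 fold change was 0.49 (SE 0.19, adjusted p = 0.108), with an adjusted p of 5.67e-05 under the block. AMOTL2 was lower in 4 of 4 pairs, at 32.3, 46.9, 45.1 and 23.2 CPM, with a log2 fold change of -0.41 (SE 0.279, adjusted p = 0.345) and an adjusted p of 3.04e-05 under the block. Neither passed the 1.5-fold limit in either fit. Under the block 7507 of all 16065 genes passed the adjusted p limit in siMYBL2. The share of all genes that differed in 1 direction in 4 of 4 pairs was not counted. CCN1 had a log2 fold change of -0.04 (95% interval with the block -0.15 to 0.08). Between siFOXM1 and siMYBL2 directly, the blocked difference was -0.40 for CCN2 (adjusted p = 0.00131) and 0.37 for AMOTL2 (adjusted p = 0.000168), also under the limit. Of all 16172 genes, 7903 passed the adjusted p limit in that blocked fit.

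In siBoth, where WWTR1, YAP1 and TEAD1 were all lower, CCN2 stood at 34.9, 40.5 and 32.7 CPM against 38.0, 35.1 and 30.7 CPM in siControl_Both, with overlapping ranges. AMOTL2 stood at 68.0, 95.5 and 68.7 CPM against 62.2, 108 and 88.9 CPM, again overlapping. CCN1 stood at 44.2, 51.6 and 46.1 CPM against 52.4, 55.4 and 60.7 CPM, lower without overlap. The log2 fold changes were 0.06 for CCN2 (95% interval -0.20 to 0.32), -0.16 for AMOTL2 (-0.64 to 0.32) and -0.25 for CCN1 (-0.46 to -0.03, adjusted p = 0.125, or 0.0226 with the block). None of the 4 targets was called by edgeR without the block, 2 had an unadjusted p under 0.05, and DESeq2 called 1, ANKRD1. Of all 15812 genes, 4683 had an unadjusted p under 0.05 and DESeq2 called 1158.

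With FDI6, 1 of the 4 targets was called, CCN2, which was higher, where 8.00% of 15240 genes were called higher. On the adjusted p alone 3 of the 4 passed, where 5935 of 15240 genes did. The share of all genes above control without overlap was not counted. CCN2 stood at 35.2, 28.4 and 32.4 CPM in FDI6 and at 17.1, 15.9 and 17.8 CPM in control_FDI6, which is 189% of control without overlap. It rose by 0.91 on the log2 scale (SE 0.103, adjusted p = 5.01e-05) and was the 1 of the 10 genes past both limits. AMOTL2 stood at 176, 191 and 200 CPM against 134, 132 and 136 CPM, and ANKRD1 at 37.1, 36.1 and 36.0 CPM against 24.7, 26.7 and 27.1 CPM. Both lay above their controls without overlap, with log2 fold changes of 0.49 (SE 0.0675, adjusted p = 0.000207) and 0.47 (SE 0.0824, adjusted p = 0.000991) that were under the size limit. CCN1 stood at 64.6, 68.1 and 70.9 CPM against 62.3, 59.9 and 58.3 CPM, a log2 fold change of 0.17 (SE 0.0733, adjusted p = 0.0822). Marker lists differed in the same libraries. The summed epithelial markers stood at 4282 to 5080 CPM in FDI6 against 7571 to 8248 CPM in control_FDI6, and the summed fibroblast markers at 6.18 to 9.85 CPM against 18.2 to 19.6 CPM, both lower without overlap. The summed lung markers stood at 67.29 to 69.98 CPM against 55.4 to 61.2 CPM, higher without overlap. The part of these differences in the target values was not tested.

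The coactivators and TEAD1 were also slightly higher with FDI6, but those values depended on the correction. YAP1 stood at 89.7, 98.4 and 104 CPM against 78.0, 79.1 and 77.2 CPM (log2 0.32, SE 0.0748, adjusted p = 0.00611), and TEAD1 at 324, 305 and 290 CPM against 232, 253 and 249 CPM (log2 0.32, SE 0.0644, adjusted p = 0.00248). TEAD4 was lower, at 48.2, 58.0 and 51.7 CPM against 62.9, 62.8 and 63.5 CPM (log2 -0.26, SE 0.0826, adjusted p = 0.0254). With the GC and length correction the log2 fold changes were 0.08 for YAP1, -0.04 for TEAD1 and 0.08 for TEAD4, with adjusted p of 0.404, 0.571 and 0.425. The same correction gave 1.00 for CCN2, 0.54 for AMOTL2, 0.43 for ANKRD1 and 0.24 for CCN1, each with an adjusted p under 0.05. Of all 15176 genes, 4808 passed 0.05 in that fit.

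FDI6 and the FOXM1 siRNA were also compared as effects against their own controls. TEAD1 was the 1 gene of 9 called, where 11.5% of 17026 genes were called and 7.32% were called higher, with an FDI6 effect 0.63 higher on the log2 scale (SE 0.101, adjusted p = 0.000737). Without siFOXM1 replicate 4 that difference was 0.57, under the size limit. It was not fitted with the GC and length correction, under which TEAD1 had -0.04 with FDI6 and -0.29 in siFOXM1. For CCN2 the difference was 0.81 (SE 0.279, adjusted p = 0.0514), and with the replicate block CCN2 (0.82, adjusted p = 3.22e-05) and ANKRD1 (0.96, adjusted p = 0.00063) were called beside TEAD1, against 16.8% of genes. For CCN2 the unblocked call was reached without siFOXM1 replicate 2 (0.95), siFOXM1 replicate 3 (0.91), siControl replicate 1 (0.93) or siControl replicate 4 (0.86). Agent and experiment cannot be told apart in this contrast, since each had its own control libraries.

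The wider pathway was read from a list of 38 Hippo pathway genes (kinases, scaffolds, polarity proteins and cofactors) and a list of 18 further YAP1 and TAZ target genes, with LATS2 and PTPN14 on both. In siMYBL2, 36 and 18 of them were tested, 52 in all, and 2 were called, a smaller share than the 7.90% of all genes. DCHS1, a protocadherin upstream of Hippo, rose by 1.08 on the log2 scale (SE 0.213, adjusted p = 0.00923) from a low mean of 0.721 CPM to 1.53 CPM. FOXF2, a forkhead factor on the target list, fell by 1.09 (SE 0.205, adjusted p = 0.00755), from 11.9 to 5.60 CPM. The median log2 fold change was 0.00 for the pathway list and -0.09 for the target list, beside 0.01 for all genes.

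In siFOXM1 none of the 52 genes tested from both lists was called by edgeR, 10 had an unadjusted p under 0.05 and DESeq2 called 3. Of all 15892 genes, 2060 had an unadjusted p under 0.05 and DESeq2 called 152. With the replicate block 4 of the 52 were called, all lower, beside 2.52% of all genes called, of which 234 of 15892 were called lower. They were PTPN14, a phosphatase that binds YAP1 (-0.77, adjusted p = 2.98e-13), CCDC80 (-0.73, adjusted p = 1.26e-12), the Hippo kinase STK3 (-0.73, adjusted p = 1.56e-11) and the motin AMOTL1 (-0.69, adjusted p = 8.64e-10), named after their values were seen. The list medians were 0.02 and -0.04, beside 0.00 for all genes. In siBoth 4 of 51 genes were called, all lower, a share near the 6.44% of all genes called (3.64% lower). TGFB2, a secreted growth factor, fell by 0.61 (SE 0.0994, adjusted p = 0.00844), PTPN14 by 0.71 (SE 0.119, adjusted p = 0.00921), CCDC80 by 0.78 (SE 0.157, adjusted p = 0.0179) and FOXF2 by 0.67 (SE 0.162, adjusted p = 0.0338). With the replicate block IGFBP3 (-1.49, adjusted p = 2.06e-07) and FAT4 (-0.63, adjusted p = 0.0038) were called as well, which, like FOXF2, were named after their values were seen. With the GC and length correction FOXF2 alone of the 4 was called, and the other values were -0.45, -0.57 and -0.59. The medians were -0.19 for the pathway list and -0.27 for the target list, beside 0.02.

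With FDI6, 15 of 50 genes tested from both lists were called, 12 higher and 3 lower, beside 13.8% of all genes called and 8.00% called higher. The summed epithelial and fibroblast markers were lower and the summed lung markers higher in the same libraries. FRMD6, a FERM protein upstream of the kinases, rose by 1.43 (SE 0.0926, adjusted p = 8.86e-07), the kinase TAOK1 by 0.90 (SE 0.0684, adjusted p = 2.86e-06) and the protocadherin FAT4 by 1.39 (SE 0.12, adjusted p = 7.1e-06). The polarity gene CRB3 fell by 1.48 (SE 0.313, adjusted p = 0.00323). On the target list NT5E, an ectonucleotidase, rose by 1.86 (SE 0.0776, adjusted p = 4.05e-08), from 60.1 to 218 CPM, ASAP1 by 0.74 (SE 0.0736, adjusted p = 1.95e-05) and PTPN14 by 0.65 (SE 0.0893, adjusted p = 0.000202). IGFBP3, an insulin-like growth factor binding protein, fell by 1.15 (SE 0.0708, adjusted p = 5.81e-07) and CCDC80 by 0.71 (SE 0.0813, adjusted p = 5.72e-05). The medians were 0.29 and 0.28, beside -0.01 for all genes. With the GC and length correction 8 of these lists' genes were called, 4 higher and 4 lower, beside 1327 of all 15176 genes, and TAOK1 (0.44), ASAP1 (0.49) and PTPN14 (0.32) no longer passed the size limit.

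Short words in the 3′ UTR, taken from earlier results on these libraries, were looked up in the 10 genes as a description. For siFOXM1 the word was GTGTTTA. In canonical GENCODE V44 transcripts it occurred 2 times in WWTR1, 2 times in TEAD1 and 1 time in ANKRD1, and in none of the other 7 genes. It stood in 17.6% of 13149 tested genes with a 3′ UTR of at least 30 bases. The siFOXM1 log2 fold changes of these 3 genes were -1.73, -0.31 and -0.46, and those of the other 7 ran from -0.30 (TEAD2) to 0.23. The word was taken from these same libraries and the WWTR1 value chose the genes, so these values are no test of the word. The ANKRD1 value was 0.01 without siControl replicate 2. The 3′ UTR of TEAD1 is long (7518 bases, against 3573 for WWTR1 and 773 for ANKRD1), which raises the number of words it can hold. YAP1, with a 3′ UTR of 3487 bases, held no copy. The sites are printed with 11 bases on each side and the word in capitals (hg38, 5′ to 3′ on the strand of the gene).
WWTR1 (chr3:149519427-149519455, minus strand): ctagatttcaaGTGTTTAaaataattcta
WWTR1 (chr3:149518152-149518180, minus strand): atggaccctttGTGTTTActaatagataa
TEAD1 (chr11:12943398-12943426, plus strand): aatgaaggtttGTGTTTAaaatttattgc
TEAD1 (chr11:12944339-12944367, plus strand): tgttaacgtctGTGTTTAggtactggtac
ANKRD1 (chr10:90912696-90912724, minus strand): cagggttatagGTGTTTAaatttccttta
The medians over all genes with and without the word were -0.07 and 0.01 on the log2 scale in siFOXM1. They come from the libraries that gave the word, and 3′ UTR length was not accounted for. For siMYBL2 the words were CCTTACA and ACGCCCA, present in 8.64% and 4.62% of 13310 tested genes. CCTTACA stood 1 time in WWTR1 and 1 time in TEAD1 and in none of the other 8 genes, TEAD4, TEAD2 and YAP1 with their siMYBL2 values of -0.98, -0.65 and -0.54 included. ACGCCCA stood in none of the 10. No siRNA sequence was compared with these sites.

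Among 14598 genes passing the filter in all 4 comparisons, those most like WWTR1 over the 24 libraries were GPSM2, KCTD20, NDE1, MDFIC and LZIC. Pearson's r of log2 CPM relative to the own control was 0.965, 0.965, 0.955, 0.954 and 0.948. These are descriptions, since libraries share controls and the knockdown groups make up much of the range. GPSM2, an adaptor that orients the mitotic spindle, had log2 fold changes of -0.48 in siMYBL2, -1.08 in siFOXM1, -1.08 in siBoth and -0.01 with FDI6. Within the set, TEAD1 was most like WWTR1 (r = 0.851, rank 83), followed by TEAD2 (0.668) and YAP1 (0.578). The targets lay between 0.116 for CCN1 and 0.386 for ANKRD1, and TEAD3 stood at -0.502.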

How the data were processed

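RNA of A549 cells was sequenced as polyA-selected paired reads. The authors trimmed reads with Trim Galore, aligned them to hg38 with STAR and deposited raw HTSeq counts per gene (GENCODE V29), as the labels, the submitters' processing notes and the study's methods give it. Tool versions and the strand setting are not given in the sources used here. The deposited counts covered 58721 genes, of which 58252 matched GENCODE V44 by identifier and 469 did not. Pairs assigned to no gene, 18.5% to 26.2% of those listed per library, were left out of library sizes and tests.

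Each treatment was compared with its own control in edgeR 4.0.16 (R 4.3.3) by the quasi-likelihood test after filterByExpr and TMM scaling, with Benjamini-Hochberg adjustment over all genes tested, in fits without a replicate block. Calls needed an adjusted p below 0.05 together with more than a 1.5-fold change, the limits of the study. Intervals are 95% intervals from the standard error. Effects were compared by interaction contrasts, and siFOXM1 with siMYBL2 directly. CPM were computed from the TMM-scaled library size, and TPM were computed from the summed exon bases per gene. Intervals and depths cover counting error and the spread between libraries as sequenced.

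Same-numbered libraries deviated together in the knockdown experiments. The lowest correlation of deviations was 0.57 in siMYBL2, 0.537 in siFOXM1 and 0.552 in siBoth, over 11934, 11932 and 11865 genes, whereas with FDI6 it ran from -0.286 to 0.159. The pairing rests on these data, since the labels give a number and not its meaning. Pairs of libraries within a group differed by a chi-square of 3.57 to 62.8 per gene, so none was taken for a repeat deposit.

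Alternatives were DESeq2 1.42.0, the replicate block, all 24 libraries in 1 fit, no fold limit, each library left out, scaling by RLE or by the upper quartile, a count minimum of 10 for each library and no filter. An offset for GC content and length, fitted by splines to genes averaging 50 counts or more, was added after the data were seen. The fits without a block were also run on simulated counts. These were drawn independently for each library, so they do not carry the pairing by replicate number and do not test the block. The genes and lists were chosen with earlier results of these data known. The genes named are the 10, the genes targeted, up to 3 called genes per list and direction with the lowest adjusted p, and the 5 most like WWTR1.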

Additional observations from a re-analysis of the deposited data

Results flagged for a closer look

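TEAD1 in siControl replicate 4 stood at 296 CPM, apart from the other 3 siControl libraries at 321 to 323 CPM. It was 1 of 30 gene and group pairs in which a far library was looked for, and chance gives about 5% of such pairs. The effects of treatments on 3 of the genes differed by a direct or interaction test (edgeR, adjusted over all genes). YAP1 was higher in siFOXM1 than in siMYBL2 by 0.60 on the log2 scale (adjusted p = 0.00058), and TEAD4 by 1.03 (adjusted p = 0.00102). The effect on YAP1 in siBoth differed from that in siFOXM1 by -0.73 (adjusted p = 6.33e-05). The effect on TEAD1 with FDI6 differed from that in siFOXM1 by 0.63 (adjusted p = 0.000737). These contrasts were not fitted with the GC and length correction, under which TEAD1 had -0.04 with FDI6 and -0.29 in siFOXM1.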

How the results depend on the processing

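A recomputed fold change was taken as the same where it kept its direction and side of the limits, and a count where it stayed within 1.5-fold. Called members that ran from 2 to 3 in siMYBL2 and from 3 to 4 in siBoth were thus taken as the same. With single libraries left out, 331 values were the same by this rule, 4 became called, 11 counts moved and 24 turned direction. Under the other alternatives 433 were the same by this rule, 4 lost and 15 gained a call, 25 counts moved and 11 turned direction. Where a value changed, the cause was not tested. WWTR1, YAP1 and TEAD1 in siBoth and CCN2 with FDI6 kept their call with every library left out. With 3 or 4 libraries a group, the unblocked intervals of CCN1, ANKRD1 and AMOTL2 in the single knockdowns are wider than the 1.5-fold limit.

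With the replicate block, the pairing that the data gave, the wider lists had 4 genes called in siFOXM1, and 2 genes were called in the contrast of the siBoth and siFOXM1 effects and 3 in that of the FDI6 and siFOXM1 effects. ANKRD1 in siBoth (-0.93) was called with the block, and no other member's call against its own control changed.

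The lists' count in siFOXM1 was 1 without a filter, 3 with DESeq2, 3 in the fit of all 24 libraries and 4 with the GC and length correction and block together. Of all genes, these settings called 115 of 33926, 152 of 15892, 143 of 17752 and 385 of 15822. In siBoth it was 2 with upper-quartile scaling, 1 with the GC and length correction and 2 with that and the block. With FDI6 it was 8 under that correction, with and without the block. On the adjusted p alone the lists' counts were 6 in siMYBL2, 9 in siBoth and 35 with FDI6. Of the 10 genes, 5 passed in siBoth and 7 with FDI6, WWTR1 with FDI6 (0.27) among them. Of all genes tested, 2902 of 16065 passed it in siMYBL2, 1949 of 15812 in siBoth and 5935 of 15240 with FDI6. The direct comparison gave 1 called gene with upper-quartile scaling. The contrast of siBoth and siFOXM1 effects gave 2 without a filter and 2 with DESeq2. The contrast of FDI6 and siFOXM1 effects gave 0 with upper-quartile scaling, 3 without a filter, and 2 with the count minimum of 10, with DESeq2 and on the adjusted p alone.

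Some log2 fold changes turned direction, and those of TEAD1 and TEAD4 with FDI6 had not been near 0. With upper-quartile scaling TEAD3 and CCN1 in siMYBL2 were 0.024 and 0.013. CCN1 in siFOXM1 was -0.017 with the GC and length correction and block. With FDI6 that correction gave -0.039 for TEAD1 (-0.038 with the block), 0.12 for TEAD2, 0.19 for TEAD3 and 0.075 for TEAD4 (0.074 with the block). Without the correction or the block, edgeR gave 0.32 for TEAD1 (adjusted p = 0.00248) and -0.26 for TEAD4 (adjusted p = 0.0254).

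With each library left out, the log2 fold change in siMYBL2 ran from -0.072 to 0.013 for TEAD3, from -0.19 to 0.12 for CCN1 and from -0.76 to 0.032 for ANKRD1. In siFOXM1 it ran from -0.012 to 0.14 for TEAD4, from -0.16 to 0.21 for CCN1, from -0.035 to 0.25 for CCN2, from -0.82 to 0.0055 for ANKRD1 and from -0.21 to 0.19 for AMOTL2. In siBoth it ran from -0.033 to 0.13 for CCN2 and from -0.35 to 0.033 for AMOTL2, and with FDI6 from -0.084 to 0.014 for TEAD3. The lists' count ran from 0 to 1 in siFOXM1 (1 without siFOXM1 replicate 4) and from 2 to 6 in siBoth (2 without siBoth replicate 2, 6 without siControl_Both replicate 1). Called genes ran from 1 to 2 in the direct comparison and in the contrast of siBoth and siFOXM1 effects, and from 0 to 2 in that of FDI6 and siFOXM1 effects.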
